A study of Mus musculus with 6 samples.

Results

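Polycomb repressive complex 2 (PRC2) is represented here by 10 mouse genes, taken by name from the 27706 protein-coding and lincRNA genes of the annotation, of which 21853 are protein-coding. They encode the catalytic subunits Ezh1 and Ezh2, the core subunits Eed and Suz12, the histone-binding subunits Rbbp4 and Rbbp7, and the accessory subunits Jarid2, Aebp2, Mtf2 and Phf19. For each gene, the peaks of H3K27ac, acetylation of histone H3 on the lysine that PRC2 methylates, were collected at its transcription start sites (TSSs), in its body and within 50 kb of its ends.

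The peaks come from ChIP-seq, sequencing of chromatin precipitated with an antibody against H3K27ac, in mouse embryonic stem cells (mESCs) of the line E14Tg2A (ES-E14TG2a in the methods), which by the labels all carried Rosa26-Cre and Oct4-IRES-Puro and were grown without serum with leukemia inhibitory factor and the inhibitors PD0325901 and CT-99021. The study compared 2 control samples, which received the solvent DMSO, with 2 samples treated with NVP-2 (100 nM), an inhibitor of the elongation kinase CDK9, and 2 treated with actinomycin D (ActD, 800 nM by the sample labels), which binds DNA and blocks RNA polymerases, each for 2 h. Every sample also received chromatin from HEK293 (HEK293T in the methods), a human embryonic kidney cell line, as a spike-in. All values below come from a single list of control peaks, which the labels tie to both control samples. The list gives the start and end of each peak and no height, so it has no replicate error, the treated samples were not analysed here, and no test between conditions was made.

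PRC2 adds methyl groups to the tail of histone H3 at K27. A given lysine carries either methylation or acetylation, and methylated H3K27 is found at silenced developmental genes in embryonic stem cells while H3K27ac is found at active promoters and enhancers. The genes described here are those that encode the complex itself, not the genes on which the complex acts.

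The list held 22973 peaks on 21 chromosomes (mouse genome mm10). The labelled cell type was checked with marker genes. All 6 embryonic stem cell markers (Pou5f1, Nanog, Sox2, Zfp42, Esrrb and Tfcp2l1) had a peak at a TSS, with a median width of 35028 bp for the widest such peak of each gene. Of the fibroblast markers Col1a1, Col1a2 and Thy1, 0 of 3 had one. Of the primitive endoderm markers, Gata6 and Gata4 had TSS peaks of 2607 bp and 1233 bp, and Sox17 had none, with the nearest peak 162340 bp away. A region marked in few cells and one marked weakly in all cells cannot be told apart in bulk chromatin.

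A gene was counted as marked when a peak overlapped the window of 1 kb on either side of any TSS of its protein-coding transcripts by at least 1 bp. Of the 10 PRC2 genes, 9 were marked (90.0%, 95% Wilson interval 59.6 to 98.2%, which takes each gene as 1 count). The exception was Rbbp4. Over all protein-coding genes the share was 51.0%. The 10 genes were taken by name and not drawn at random, so the interval is not a test against this share. The 10 genes have 38 annotated TSS positions, of which 31 had a peak in the window and 28 lay inside a peak. Of the 7 positions without a peak, 2 were those of Rbbp4 and the other 5 were start sites of transcripts of Ezh2, Eed, Jarid2 and Aebp2 that begin further downstream. Of the 9 TSS peaks, 0 reached the TSS window of another protein-coding or lincRNA gene, whereas 30.0% of the coding genes with a TSS peak shared it in this way.

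The TSS peaks differed in width from 436 bp at Ezh1 to 57217 bp at Mtf2, a range of 131-fold. In ascending order the widths were 436 bp at Ezh1, 642 bp at Phf19, 2176 bp at Ezh2, 4225 bp at Suz12, 11047 bp at Jarid2, 13100 bp at Eed, 20426 bp at Rbbp7, 34393 bp at Aebp2 and 57217 bp at Mtf2. A peak at least 10 kb wide was thus present at 5 of the 10 genes, against 5.75% of all coding genes. The median of the 9 widths was 11047 bp, against 2225 bp over the 11149 coding genes with a TSS peak, for which the quartiles were 1570 bp and 4990 bp. Both ends of that distribution were occupied. The peaks of Ezh1 and Phf19 were wider than only 1.30% and 4.09% of those of coding genes, and those of Jarid2, Eed, Rbbp7, Aebp2 and Mtf2 were wider than 90.1 to 99.7%. The width of a peak depends on the authors' merging of peaks within 2 kb of each other, and with a single list no error can be given for it.

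**Figure D1:**
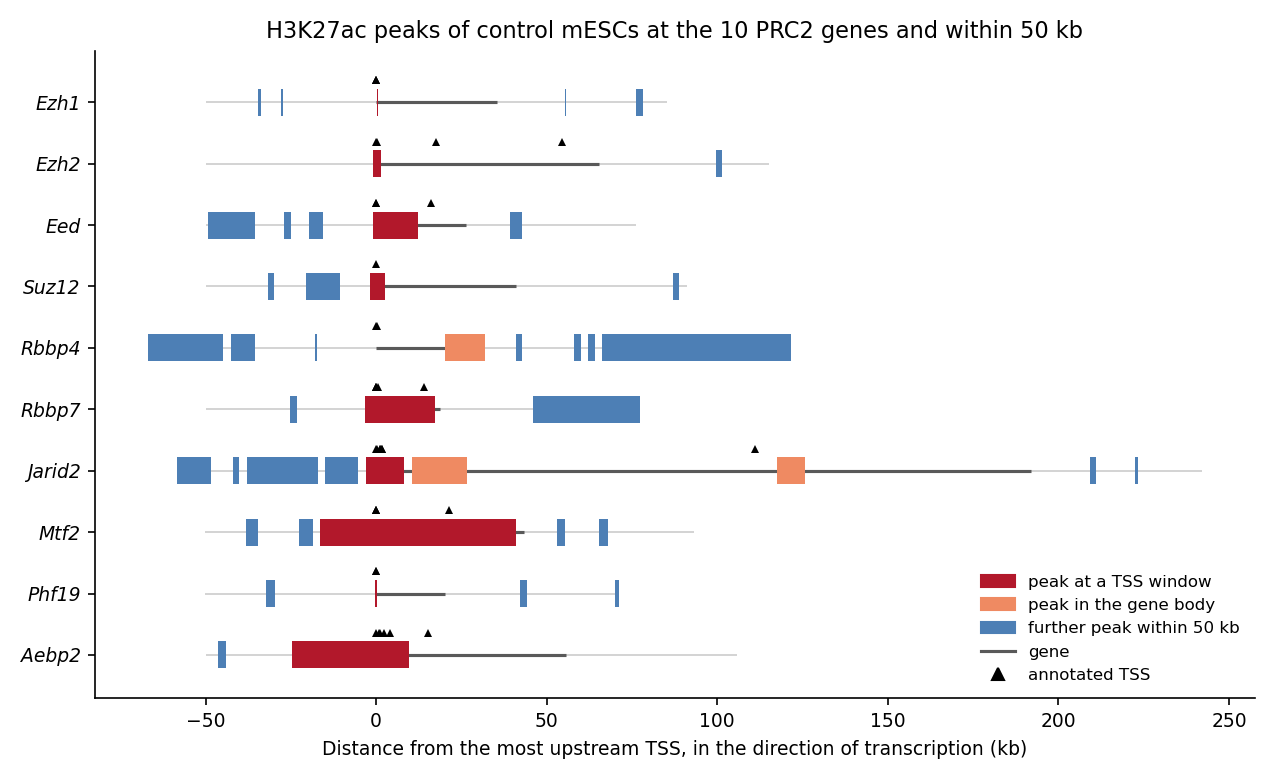
Each row is 1 PRC2 gene drawn in the direction of transcription, with the distance from its most upstream TSS in kb on the x axis. Boxes are control H3K27ac peaks at a TSS window (red), in the gene body (orange) and further away within 50 kb of the gene (blue), the dark line is the gene, the grey line adds 50 kb on each side and triangles are annotated TSSs. Rbbp4 has no peak at its TSSs, Ezh1 and Phf19 have peaks under 1 kb, and the peak of Mtf2 spans 57.2 kb.

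**Figure D2:**
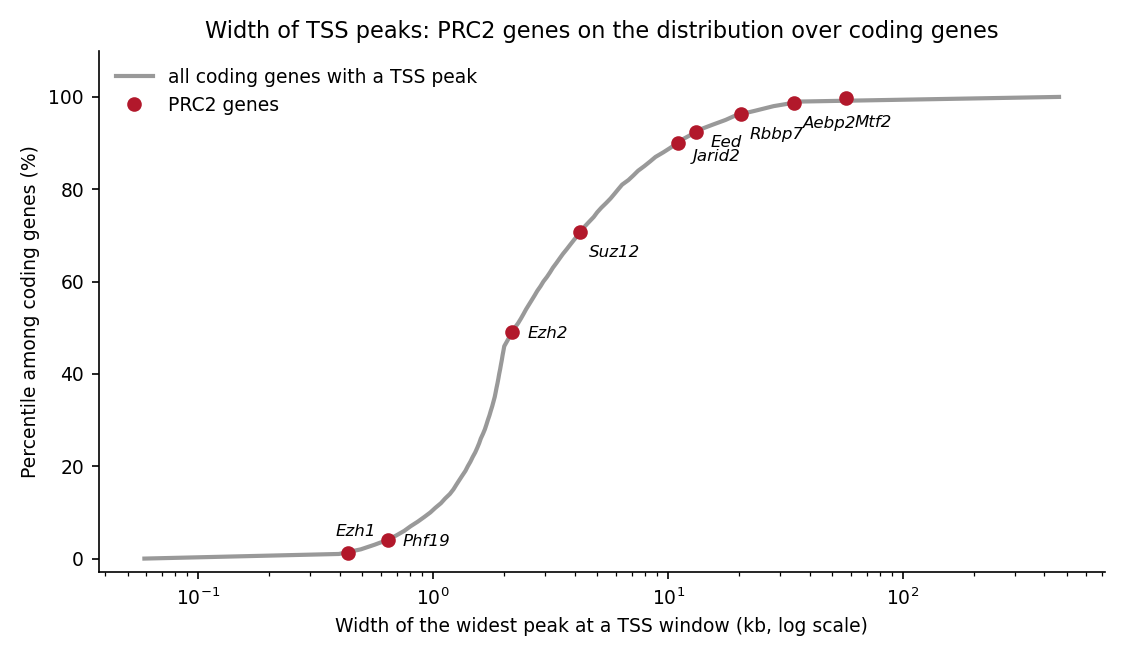
The width of the widest peak at a TSS window in kb (x axis, log scale) is plotted against its percentile among the 11149 coding genes with such a peak (y axis). The grey line is the distribution over coding genes and the red points are the 9 PRC2 genes with a TSS peak, which lie between the 1.30 percentile (Ezh1) and the 99.7 percentile (Mtf2).

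The catalytic subunits are encoded by Ezh1 and Ezh2. Ezh2 (ENSMUSG00000029687.16), the main H3K27 methyltransferase of dividing cells, occupies bases 47530139 to 47595341 of chromosome 6 of mm10 on the minus strand. Its peak, from 47593959 to 47596134, reached 793 bp upstream and 1382 bp downstream of the most upstream TSS and so covered the first exon and the start of the first intron. No other peak lay in its 65.2 kb, and 2 further start sites, 17.7 kb and 54.6 kb downstream, were 16.3 kb and 44.9 kb from the nearest peak. A single further peak was found within 50 kb, 34.3 kb beyond the 3′ end and overlapping Cul1.

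Ezh1 (ENSMUSG00000006920.14), the paralogue of Ezh2 that is also present in cells that no longer divide, occupies bases 101191115 to 101226463 of chromosome 11 on the minus strand. Its peak of 436 bp, from 101225889 to 101226324, was the narrowest of the group and lay wholly inside the first intron. Its 3 annotated TSSs were 102, 126 and 139 bp outside it, so Ezh1 counted as marked by the window but had no TSS inside a peak. In that respect it differed from the 8 other marked genes. Over all coding genes, 47.7% had a TSS inside a peak. The 4 further peaks within 50 kb of Ezh1 were 521 to 2120 bp wide, and 3 of them lay at TSSs of the neighbouring genes Plekhh3, Vps25 and Wnk4. Peaks covered 1.23% of Ezh1 and 2.12% of Ezh2, near the median of 1.51% for coding genes.

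The promoters of the catalytic subunits are shown here because one is inside a peak and the other beside it. Each sequence holds 250 bases before the RefSeq start site and 50 bases from it on, 5′ to 3′ on the gene's strand (RefSeq, GRCm38.p6). Capitals mark matches, on either strand, to the words of transcription factor motifs named after the sequences. The Ezh2 promoter (chr6:47594981-47595280, minus strand) was wholly inside its peak. The Ezh1 promoter (chr11:101226414-101226713, minus strand) had 0 bases inside a peak.
Ezh2: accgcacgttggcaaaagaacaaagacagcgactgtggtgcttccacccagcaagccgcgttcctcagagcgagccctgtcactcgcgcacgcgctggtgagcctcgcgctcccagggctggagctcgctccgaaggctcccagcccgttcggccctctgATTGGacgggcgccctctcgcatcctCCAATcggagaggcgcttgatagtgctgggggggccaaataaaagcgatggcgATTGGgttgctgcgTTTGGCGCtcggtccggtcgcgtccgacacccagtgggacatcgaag
Ezh1: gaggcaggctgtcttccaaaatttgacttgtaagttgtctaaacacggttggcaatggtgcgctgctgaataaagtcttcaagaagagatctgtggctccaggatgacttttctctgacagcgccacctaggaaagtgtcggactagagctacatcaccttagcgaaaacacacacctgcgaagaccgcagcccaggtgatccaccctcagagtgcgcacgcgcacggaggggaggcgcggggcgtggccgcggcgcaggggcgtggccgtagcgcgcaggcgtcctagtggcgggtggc
The word searched for the factor NF-Y was CCAAT. The words TTTCCCGC and TTTGGCGC stood for E2F, a regulator of genes of the cell cycle. Sp1 was searched as GGGCGG and the ETS family was searched as CCGGAAG. The E-box was taken as CACGTG and the TATA box was taken as TATAAA. The cyclic AMP response element was taken as TGACGTCA and the octamer bound by Oct4 was taken as ATGCAAAT. The palindrome bound by NRF1 was searched too, and no word overlaps another in the promoters shown. The Ezh2 promoter held CCAAT 3 times, beginning at positions -90, -64 and -11 from the start site, and TTTGGCGC once, at position 3. The Ezh1 promoter held none of the words. Over 20143 promoters of coding genes of the same length, CCAAT occurred in 37.8% and TTTGGCGC in 0.660%.

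Eed and Suz12 form the core of the complex with the catalytic subunit, and Eed binds trimethylated H3K27. Eed (ENSMUSG00000030619.9) occupies bases 89954654 to 89980983 of chromosome 7 on the minus strand. Its peak of 13100 bp, from 89968762 to 89981861, reached 878 bp upstream of the TSS and 12.2 kb downstream and covered exons 1 to 6 of the 12 of the isoform with the longest span, or 46.4% of the gene. It ended 3.92 kb short of another annotated TSS, 16.1 kb downstream. Upstream of Eed, 3 further peaks of 4107, 1943 and 13865 bp lay 15684, 24979 and 35510 bp from the gene, and none was at the TSS of a gene.

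Suz12 (ENSMUSG00000017548.15), the scaffold that the other subunits join, occupies bases 79993106 to 80034123 of chromosome 11 on the plus strand and has a single annotated TSS for its protein-coding transcripts. Its peak of 4225 bp, from 79991348 to 79995572, reached 1.76 kb upstream and 2.47 kb downstream and covered the first exon. A further peak of 9921 bp lay 10.5 kb upstream, away from any TSS, and 2 others lay at the TSSs of Utp6 and Crlf3.

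Rbbp4 and Rbbp7 are closely related WD-repeat proteins that bind histones in PRC2 and also in other chromatin complexes. Rbbp7 (ENSMUSG00000031353.13) occupies bases 162760402 to 162779092 of the X chromosome on the plus strand. A peak of 20426 bp, from 162757273 to 162777698, covered 92.5% of the gene, with exons 1 to 10 of the 12 of the isoform with the longest span and all 5 annotated TSSs. Further away, a peak of 2174 bp lay 23.1 kb upstream and one of 31196 bp lay 27.4 kb downstream, at the TSS of Txlng.

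Rbbp4 (ENSMUSG00000057236.10) occupies bases 129307100 to 129335370 of chromosome 4 on the minus strand. Its annotated TSSs, at 129335370 and 129335083, were 17.2 kb and 17.5 kb from the nearest peak, which spanned 834 bp from 129352556 to 129353389 in the neighbouring gene Zbtb8os. Zbtb8os is transcribed in the opposite direction from a TSS 325 bp away from one of Rbbp4, and it was not marked either. Rbbp4 was the only member with another gene's TSS within 1 kb of its own. For the other 9 genes the nearest TSS of another gene was 5931 to 107353 bp away. The unmarked stretch was bounded downstream by a peak of 11863 bp, from 129303408 to 129315270, which began inside intron 11, covered exon 12, the last one, and ran past the 3′ end of Rbbp4 over the TSS window of the lincRNA gene Gm26722. Between these peaks lay 37285 bp without one.

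The surroundings of Rbbp4 held many peaks. Within 50 kb of the gene there were 7 further peaks, more than at any other PRC2 gene and more than at 97.6% of coding genes. They included a peak of 55512 bp at the TSS windows of C77080 and Gm12976 and one of 22137 bp away from any TSS. Peaks covered 33.4% of the bases of Rbbp4 with 50 kb on each side, a share above that of 96.0% of coding genes. The list does not tell whether signal at the Rbbp4 TSS was absent or was below the authors' thresholds of height and of distance to open chromatin.

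The sequence of the Rbbp4 promoter is shown because Rbbp4 is the gene without a TSS peak. It lies at chr4:129335321-129335620 on the minus strand and is given as above.
Rbbp4: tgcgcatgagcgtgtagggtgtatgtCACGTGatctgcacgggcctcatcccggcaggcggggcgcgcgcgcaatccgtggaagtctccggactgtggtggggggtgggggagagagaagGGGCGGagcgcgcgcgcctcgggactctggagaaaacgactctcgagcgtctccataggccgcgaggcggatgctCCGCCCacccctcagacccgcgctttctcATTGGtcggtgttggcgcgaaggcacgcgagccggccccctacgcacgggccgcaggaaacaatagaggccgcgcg
It held GGGCGG 2 times, CCAAT once and CACGTG once. CACGTG occurred in 1 of the 14 promoters of PRC2 genes and in 8.03% of promoters of coding genes. Of its 300 bases 68.7% were G or C, and it held 39 CpG dinucleotides, 1.12 times the number given by its content of C and G. In the wider window of 1 kb on either side of the most upstream TSS this ratio was 0.895 for Rbbp4, higher than for 97.5% of coding genes. The median ratio was 0.631 over marked coding genes and 0.224 over unmarked ones. Of 538 coding genes with a ratio at least as high as that of Rbbp4, 500 (92.9%) were marked. The window held 0 unknown bases and 5.60% of it was masked as repeat, against a median of 13.9% over coding genes.

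Jarid2 and Aebp2 are found together in one form of the complex. Jarid2 (ENSMUSG00000038518.15), a DNA-binding member of the Jumonji family without demethylase activity that helps bring PRC2 to chromatin, occupies bases 44729474 to 44921643 of chromosome 13 on the plus strand, and with 192170 bp it is the longest of the 10 genes. It had the most peaks of the 10, with 1 at its TSSs, 2 in its body and 6 further ones within 50 kb. The TSS peak of 11047 bp, from 44726682 to 44737728, covered 7 of the 8 annotated TSSs. The eighth, 111156 bp downstream, was 6.26 kb from a peak of 8342 bp that covered exon 3. The other gene body peak, of 16133 bp, lay within intron 1.

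At Jarid2 a chain of 4 peaks ran from 37.8 kb upstream of the most upstream TSS to 26.7 kb downstream. Together they covered 57.7 kb, or 89.5%, of the 64.5 kb from 44691775 to 44756252, and the gaps between them were 2032 to 2391 bp, just above the distance at which the authors merged peaks. Another peak, of 1742 bp, ended 2549 bp before the chain and was not counted in it, so the limits of the chain depend on the gap allowed. Gaps of 2083 to 2219 bp were also found between peaks near Rbbp4. None of the 6 further peaks was at the TSS of a gene, and the nearest TSS of another gene was 107353 bp away. A gene body peak was found in 2 of the 10 PRC2 genes, Jarid2 and Rbbp4, and in 19.3% of all coding genes.

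Aebp2 (ENSMUSG00000030232.18), a zinc finger protein, occupies bases 140622663 to 140678472 of chromosome 6 on the plus strand. Its peak of 34393 bp, from 140597930 to 140632322, was the only TSS peak of the group that extended further upstream than downstream, by 24.7 kb against 9.66 kb. It covered the first exon and 5 of the 6 annotated TSSs, and the sixth, 15.1 kb downstream, was 5.43 kb beyond its end. The only further peak, 43.9 kb upstream, lay at the TSS of Plekha5.

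Mtf2 and Phf19 are Polycomb-like proteins that bind DNA rich in unmethylated CpG through their winged-helix domain and belong to the other form of the complex. Mtf2 (ENSMUSG00000029267.17), the form prominent in embryonic stem cells, occupies bases 108065674 to 108109004 of chromosome 5 on the plus strand. The peak of 57217 bp, from 108049380 to 108106596, began 16.3 kb upstream of the most upstream TSS, covered all 4 annotated TSSs and reached exon 15, the last one, so that 94.4% of the gene was inside it. A separate peak of 4147 bp ended 2138 bp before it began. Phf19 (ENSMUSG00000026873.9) occupies bases 34893757 to 34914026 of chromosome 2 on the minus strand. Its peak of 642 bp, from 34913620 to 34914261, reached 244 bp upstream and 397 bp downstream and covered the first exon, and 2.01% of the gene was inside it. The widest TSS peak of the group and the second narrowest thus belonged to related genes.

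RefSeq gives 2 promoters for Mtf2, the gene with the widest TSS peak, and the more upstream one is shown. It lies at chr5:108065424-108065723 on the plus strand, wholly inside the peak.
Mtf2: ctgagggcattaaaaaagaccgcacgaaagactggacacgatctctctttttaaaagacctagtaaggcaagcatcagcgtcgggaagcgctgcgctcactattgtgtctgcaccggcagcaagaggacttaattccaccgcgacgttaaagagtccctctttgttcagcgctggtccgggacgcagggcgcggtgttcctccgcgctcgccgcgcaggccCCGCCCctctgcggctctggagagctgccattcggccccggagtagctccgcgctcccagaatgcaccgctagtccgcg
Its only match was GGGCGG, read on the other strand. The other Mtf2 promoter, at chr5:108077915-108078214, was also wholly inside the peak and held CCAAT 3 times. RefSeq gives 14 promoters for the 10 genes. Of these, 12 lay wholly inside a peak and those of Ezh1 and Rbbp4 wholly outside. CCAAT was found in 9 of the 14 promoters, against 37.8% of promoters of coding genes, and GGGCGG also in 9 of the 14, against 47.7%. These promoters belonged to 8 genes for CCAAT and to 7 for GGGCGG, and an E2F word was found in those of Suz12, Phf19 and Ezh2. TTTCCCGC, the word of Suz12 and Phf19, occurred in 1.45% of promoters of coding genes. The words for ETS, the cyclic AMP response element, the octamer and NRF1 were in 0 of the 14, and over promoters of coding genes in 11.9%, 2.31%, 1.55% and 1.38%.

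**Figure D3:**
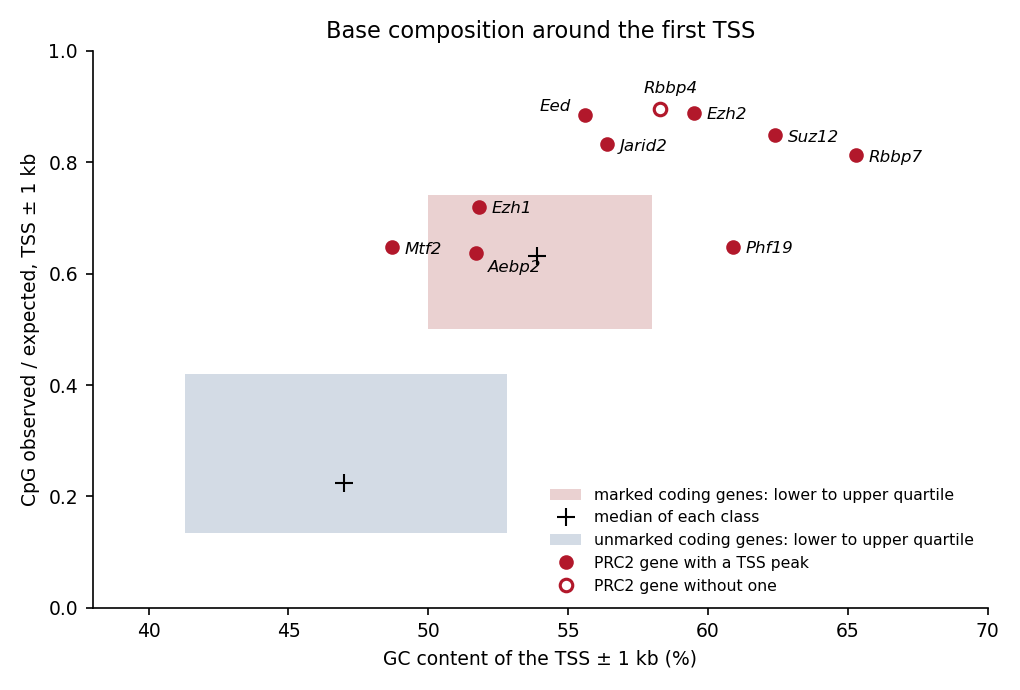
GC content in percent (x axis) and CpG observed over expected (y axis) are shown for the 2001 bp around the most upstream TSS of each PRC2 gene. Shaded boxes run from the lower to the upper quartile of marked and of unmarked coding genes in both measures, and crosses are their medians. Rbbp4 (open point, ratio 0.895) lies above the box of marked genes and has the highest ratio of the 10.

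All 10 genes had a CpG ratio above the coding median of 0.478 in this window, from 0.637 at Aebp2 to 0.895 at Rbbp4. Genes with close CpG ratios could have peaks of very different width. Mtf2 and Phf19, with peaks of 57217 and 642 bp, had ratios of 0.647 and 0.648. The GC content was 48.7% at Mtf2, the lowest, and 65.3% at Rbbp7, the highest. The Ezh1 window stood out in its repeats, with 44.5% of bases masked against 5.30 to 22.9% at the other genes. Whether repeats bear on the narrow Ezh1 peak was not tested.

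The share of bases inside peaks also differed between genes. The share of the gene inside peaks had a median of 17.1% over the 10 genes, against 1.51% over coding genes, and ran from 1.23% at Ezh1 to 94.4% at Mtf2. With 50 kb added on each side, the median was 24.1% against 3.88%. Shares above 20% were reached at Mtf2 (48.7%), Rbbp7 (38.1%), Rbbp4 (33.4%), Eed (28.9%), Jarid2 (24.6%) and Aebp2 (23.7%). Suz12 followed with 12.4%, and Phf19 (4.71%), Ezh1 (3.43%) and Ezh2 (2.45%) lay near the coding median. The genes of the 2 catalytic subunits were among the 3 genes with the smallest share, which includes the gene itself. The order by number of further peaks within 50 kb was another, with 4 at Ezh1 and 1 each at Ezh2 and Aebp2.

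**Figure D4:**
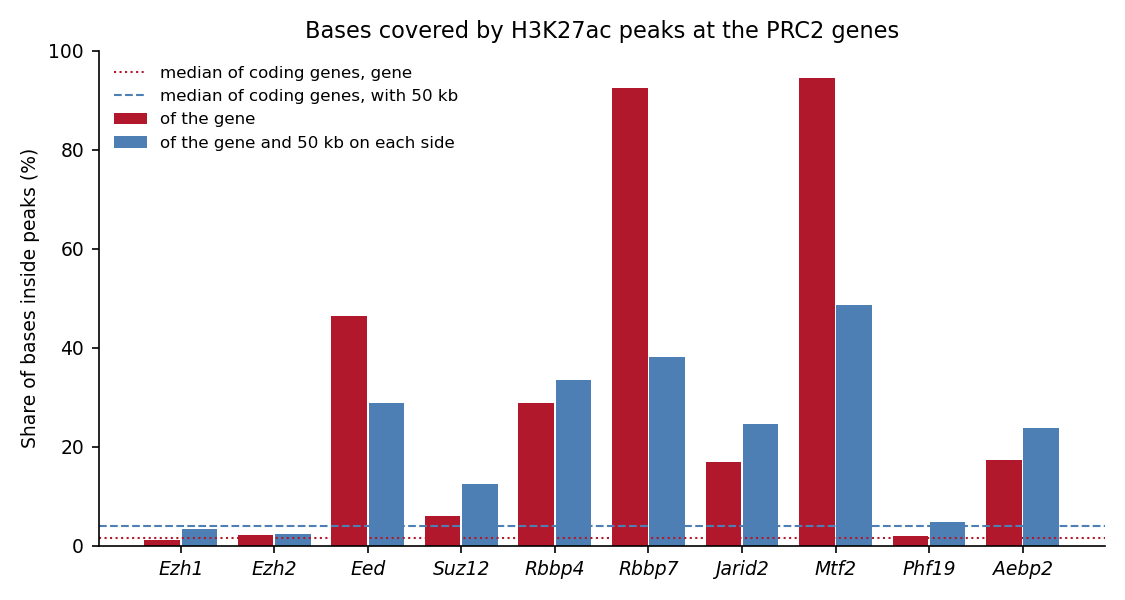
Bars give the share of bases inside control H3K27ac peaks in percent for each PRC2 gene (red) and for the gene with 50 kb on each side (blue). Lines give the medians over 21853 coding genes, 1.51% (dotted, gene) and 3.88% (dashed, with 50 kb). Mtf2 and Rbbp7 reach 94.4% and 92.5% of the gene, and Ezh1 and Ezh2 stay below 4% in both measures.

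Outside the genes and their TSS windows, 35 further peaks lay within 50 kb, with a median width of 2174 bp. All 10 genes had at least 1, compared with 67.5% of all coding genes, and the median number was 3.5 against 1. Of these peaks, 12 lay at the TSS of another gene and 23 did not. Only 5 were at least 10 kb wide, near Rbbp4, Jarid2, Rbbp7 and Eed. The PRC2 genes had a median length of 38.2 kb, against 17.4 kb over coding genes. The stretch searched for further peaks was 50 kb on each side whatever the length of the gene.

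Other genes of the pathway were taken from 4 lists, and the share of all coding genes that were marked was 51.0%. Of the other PRC2 genes, 4 of 5 were marked, namely Phf1, a Polycomb-like protein, Epop, an accessory subunit prominent in mESCs, and Lcor and Lcorl, which encode further accessory proteins. Their widest peaks were those of Epop (12811 bp) and Lcor (9427 bp). Ezhip, which encodes an inhibitor of the complex used in the germ line, was not marked and lay 315965 bp from the nearest peak on the X chromosome. It was found in the annotation under an older symbol.

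Of the genes of the H3K27 demethylase family, 1 of 3 was marked. Kdm6a and Kdm6b, which encode enzymes that remove the mark of PRC2, were not. Kdm6a on the X chromosome was 409815 bp and Kdm6b on chromosome 11 was 15694 bp from the nearest peak. Uty, the Y-linked relative of Kdm6a, known for little demethylase activity, lay inside a peak of 461321 bp, the widest of the list, which also overlapped the TSS windows of 4 other genes, Ddx3y, Eif2s3y, Gm29650 and Usp9y. Uty counted as marked through this peak alone, which does not single out its own TSSs. Among coding genes with a TSS peak, the 99th percentile of width was 36802 bp.

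All 5 listed genes of H3K36 methyltransferases, whose marks are known to hinder PRC2, were marked. The widest peaks were those of Nsd1 (10299 bp) and Setd2 (5001 bp), and the median was 2267 bp. A list of 13 genes was taken from the partners that Rbbp4 and Rbbp7 have in the CAF-1, HAT1, NuRD and SIN3 complexes, without covering all of them. All 13 were marked, with a median of 6579 bp and the widest peaks at Gatad2a (17875 bp) and Hat1 (15955 bp). Rbbp4 had no TSS peak in the list, while these 13 genes and its paralogue Rbbp7 had one. The median width was 11047 bp for the PRC2 genes with a TSS peak. With 3 to 13 genes a list, these medians are descriptions, and the lists were not tested against each other.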

How the data were processed

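H3K27ac was measured by ChIP-seq in 6 samples of mESCs, 2 each with DMSO, NVP-2 or ActD, and groups were taken from the sample labels. The deposited list of control peaks, made by the authors, stands for both control replicates, gives positions in bp of mm10 and has no unit of signal. How the replicates were combined is not given in the sources used here. According to the methods, reads were mapped with bwa meme against a joint mouse and human reference, duplicates and poorly mapped reads were removed, peaks were called with LanceOtron, merged within 2 kb and filtered by height and by distance to ATAC-seq summits. The submitters' processing notes name Picard 2.9.1 and SAMtools 1.4. The read depth cannot be taken from the list. The paper's reporting summary gives unequal depths for the 2 control replicates, and how this bears on the peaks was not tested.

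Peaks were compared with GENCODE M21 (GRCm38, the same build, an earlier release than the authors used) and the GRCm38.p6 sequence of RefSeq. TSSs were those of protein-coding transcripts, a gene body peak overlapped the gene but none of its own TSS windows of 1 kb on either side, and further peaks lay up to 50 kb from the gene ends. Coordinates count the first base of a chromosome as 1. Repeats are the lower-case bases of that sequence. Percentiles give the share of coding genes with a smaller value. All members were described, and of each list the unmarked genes and the 2 with the widest TSS peaks were named. The members, lists and motif words were chosen with earlier results of these data known. The 95% Wilson interval covers counting error alone, and no test was made. The calls were run on 3000 simulated peaks placed over TSSs, and all 3000 genes were found, which the placement fixed in advance. In the same simulation the calls of all 21853 coding genes equalled those of a full search. The software was Python 3.11.15 with numpy 2.4.6, scipy 1.17.1 and pandas 2.3.3, and figures were drawn with matplotlib 3.10.9.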

Additional observations from a re-analysis of the deposited data

How the results depend on the processing

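Of 65 values recomputed under alternatives, 60 stayed as they were or, for counts, within 1.5 times the value given. The number of marked PRC2 genes, 9, stayed 9 with windows of 500 bp or 2 kb, with the longest isoform only and with transcripts of every type. It was 8 with the TSS itself inside a peak and with an overlap of at least 500 bp, both of which left out Ezh1, and 7 with peaks at least 1 kb wide, which left out Ezh1 and Phf19. Rbbp4 was unmarked under all 7 alternatives. The share over all coding genes ran from 45.6 to 51.9%. The median width of TSS peaks was 11047 bp. It was 12073.5 bp with the TSS inside a peak and with an overlap of at least 500 bp, both without Ezh1. With peaks at least 1 kb wide, which leaves out narrow peaks by construction, the median was 13100 bp. Without peaks at the TSS of another gene, only 1 PRC2 gene, Jarid2, had a gene body peak, because the peak at the 3′ end of Rbbp4 overlaps the TSS window of Gm26722, and 3691 coding genes had one in place of 4218. Under the same setting 9 PRC2 genes, all but Aebp2, and 9631 coding genes in place of 14742 had a further peak within 50 kb. A further peak within 25 kb was found at 8 of the 10 genes, not at Ezh2 and Aebp2, and at 11552 of the 21853 coding genes. The counts of marked genes in the 4 other lists of the pathway were the same under all 7 alternatives.

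No paired analysis was possible because one list of peaks stands for both control replicates. Leaving out either replicate was not possible either, and how far each contributes to a peak was not tested. The list gives no score, so a stricter threshold on peak height was not run.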
